A study of Bos taurus with 24 samples.

Results

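Oxidative phosphorylation genes encode the respiratory chain and ATP synthase of mitochondria. The genes described here were chosen by name, from features (array spots) with a single gene symbol that begins with NDUFA, NDUFB, NDUFC, NDUFS, NDUFV, UQCR or ATP5, with SDH followed by A to D, or with COX followed by 4 to 8. They are 112 of the 17418 features on the array and 77 of its 9425 named genes. Of the 77 genes, 68 encode subunits of complexes I to V, and 9 encode assembly factors, paralogs or an inhibitor that the naming rule also takes in. Values for testing were available for 76 genes, all but NDUFA10, and for 108 features. Measured on at least 20 of 24 arrays, the 67 tested subunit genes comprised 32 of complex I, 4 of complex II, 7 of complex III, 9 of complex IV and 15 of complex V.

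The series addresses ovarian follicle selection in cattle (Bos taurus). From 16 heifers, 1 follicle each, the largest and 8 to 12 mm in diameter, gave total RNA. The RNA of follicles was hybridised in pairs on 24 arrays, so that every follicle was measured 3 times, with both dyes, and all are linked through their partners. The labels name the follicles J980, 861, H893, 8, 26, 27, 31, 33, 46, C10, C12, C13, C22, C26, C32 and C35, with no treatment, stage, breed or age, so each follicle stands for itself and the comparisons are between follicles. Of the 10 granulosa and 8 theca and luteal steroidogenic markers looked for, 9 and 5 were tested. A ratio between 2 follicles does not show whether a marker is present, so the tissue label could not be checked against absolute levels.

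In the inner mitochondrial membrane, complexes I and II pass electrons from NADH and succinate to ubiquinone, complex III passes them to cytochrome c and complex IV to oxygen. Complexes I, III and IV pump protons, and ATP synthase, complex V, makes ATP as the protons return. Each of these complexes except complex II mixes subunits encoded in the nucleus with subunits encoded in mitochondrial DNA; the genes named here are nuclear. In an antral follicle, granulosa cells rely largely on glycolysis while the oocyte depends on mitochondrial ATP.

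Levels below are log2 values relative to the mean of the 16 follicles, or of the other 15 where values are given without J980. The standard error (SE) of a level is array error, over 3 arrays where none is missing. Ratios given for single arrays carry no dye correction, unlike the fitted levels. Among subunits in J980, values were missing for NDUFS1 on 2 arrays and for NDUFA3 and SDHC on 1. The logs are taken as base 2. Ratios are read with Cy5 on top, which the order of names in the labels makes likely without stating it; were they inverted, every sign would turn. A whole follicle was extracted, so fewer cells of a type and less RNA per cell cannot be told apart. The arrays of J980 stood apart: their values had SDs of 0.47 to 0.54, against 0.28 to 0.49 on the other 21 arrays, and one had 16094 values, fewer than any other. For that reason each result is also given from a fit without J980 and its 3 arrays, in which follicles 8, 26 and 27 rest on 2 arrays each.

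The oxidative phosphorylation genes differed between follicles more often than genes in general. Of the 76 tested, 27 passed the limma F test at a Benjamini-Hochberg adjusted p of 0.05, which is 35.5%, against 11.8% of all 9026 genes. Among features 38 of 108 passed, against 12.2% of all features. Without J980, 15 of the 76 genes passed, or 19.7%, against 7.5% of all genes, and 25 features passed, against 8.48%. Leaving out the array of 31 and C10 as well gave 5 genes in place of 15, and other single arrays gave 6 to 16. All 15 had also passed with J980, and 12 genes passed only with it. At an unadjusted p under 0.05 there were 43 genes, against 26.5% of all genes. The test compares these 16 RNA samples, since no second follicle of an animal was measured.

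The complexes did not differ alike. Complex III had 4 of 7 subunit genes past the test (57.1%) and complex IV 5 of 9 (55.6%), while complex I had 12 of 32 (37.5%), complex V 4 of 15 (26.7%) and complex II 0 of 4. Without J980 the counts were 3 of 7 in complex III, 4 of 9 in complex IV, 3 of 32 in complex I (9.38%), 3 of 15 in complex V and 0 of 4 in complex II. Complex I thus came close to the 7.5% of all genes once J980 was left out, and complexes III and IV, at 42.9% and 44.4%, stayed above it. Whether the shares differ between complexes was not tested.

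**Figure D1:**
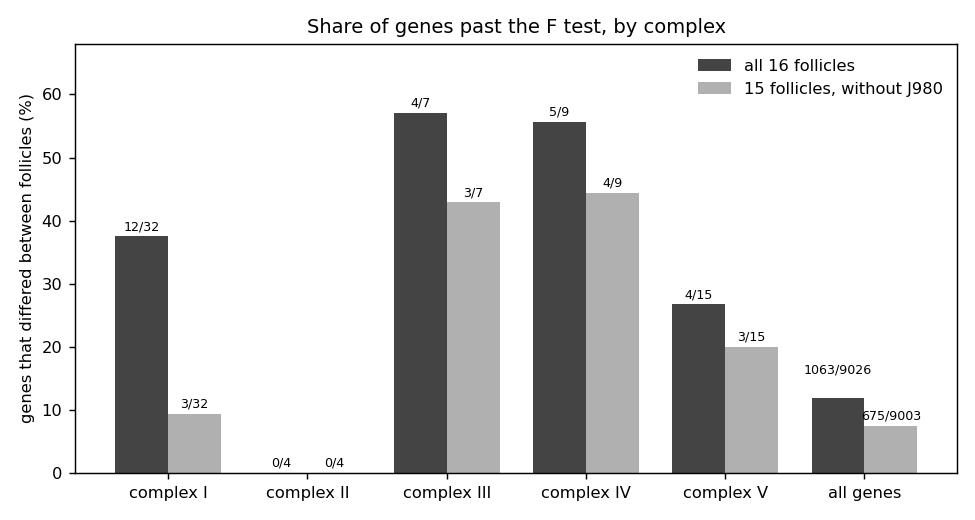
Share of subunit genes past the F test (percent, vertical axis) in each complex and among all genes, with all 16 follicles (dark bars) and without J980 (light bars); numbers above the bars are genes past the test over genes tested. Complexes III and IV stand at 57.1% and 55.6% with J980 and at 42.9% and 44.4% without it, and complex II at 0 in both.

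Averaged over the 67 subunits, the level was lowest in J980 at -0.21 ± 0.04 (SE) and next in C10 at -0.12 ± 0.03, and it was highest in H893 at 0.12 ± 0.04 and in 861 at 0.16 ± 0.04. The mean over all genes was -0.02 in J980. In this order, J980 and C10 were 0.083 apart and C10 and C26 were 0.055 apart. The other neighbours were at most 0.047 apart, with an SE of each follicle's mean of 0.033 to 0.038, so the order in the middle is not resolved. As a median of the 67 subunits, C10 was lowest at -0.16 and J980 next at -0.15, so the order of J980 and C10 is not resolved either. Array by array, the subunits averaged -0.23 in J980 relative to 8 and -0.30 relative to 27, with J980 in Cy5, and with J980 in Cy3 the ratio of 26 over J980 averaged 0.18. The mean of all subunits was thus lower in J980 on all 3 of its arrays, with both dyes. C10 was also lower on each of its 3 arrays: the subunits averaged -0.12 in C10 over 26, and 0.23 in 861 over C10 and 0.20 in 31 over C10.

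**Figure D2:**
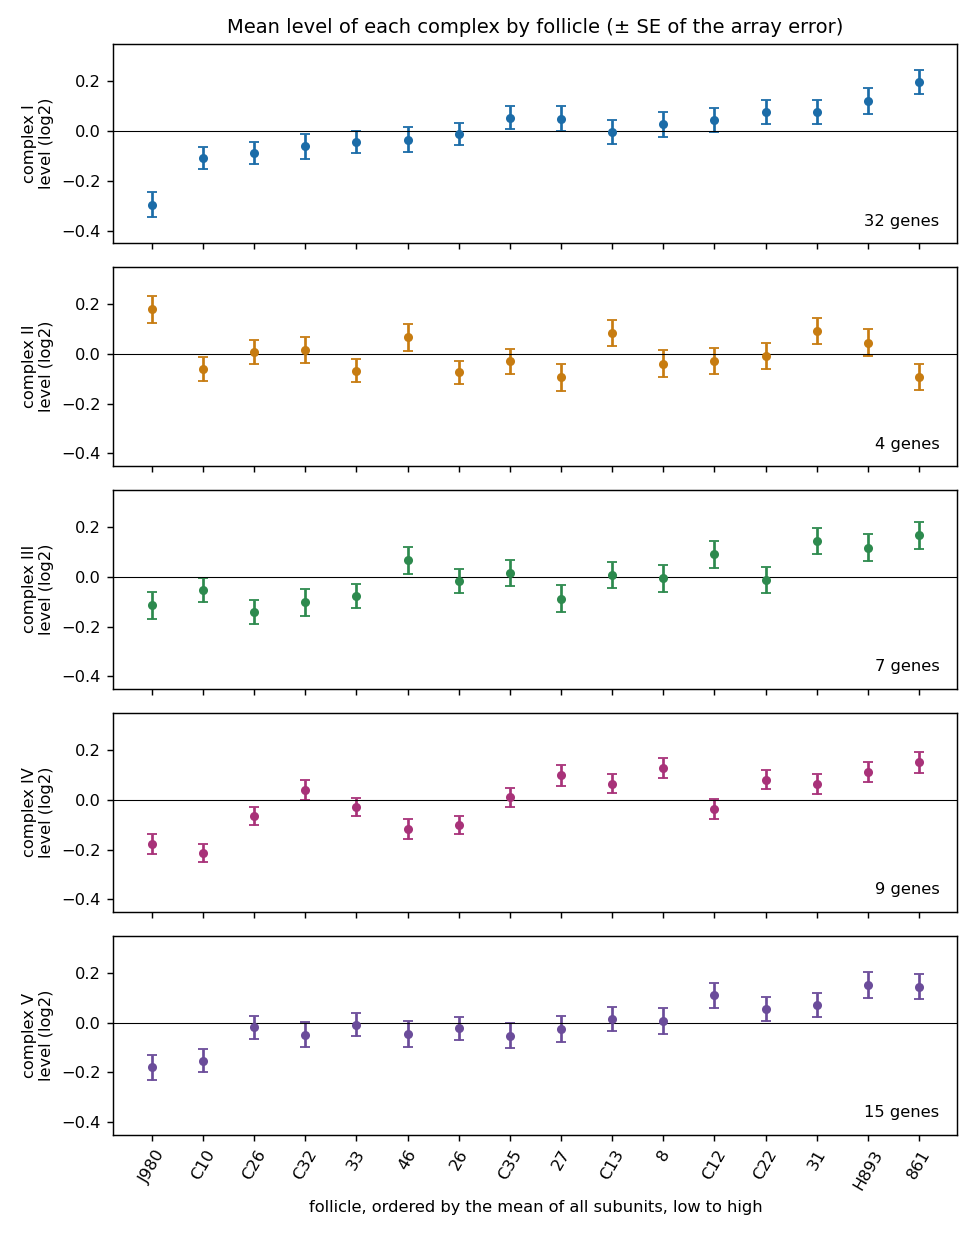
Mean level of each complex (log2, vertical axes) in the 16 follicles, ordered by the mean of all 67 subunits from low to high; points are means over the genes of the complex and bars are the SE from array error. J980 is lowest or next to lowest for complexes I, III, IV and V, at -0.30 to -0.12, whereas for complex II it is highest at 0.18.

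By complex, J980 had a mean of -0.30 ± 0.05 in complex I, -0.12 ± 0.05 in complex III, -0.18 ± 0.04 in complex IV and -0.18 ± 0.05 in complex V, but 0.18 ± 0.05 in complex II. It was the lowest follicle for complexes I and V, the second lowest for III, below which lay C26 at -0.14, and the second lowest for IV, below which lay C10 at -0.21. For complex II it was the highest, above 31 at 0.09. The low end of complex V is not resolved, as C10 was at -0.15 ± 0.05 there. Without the array of 26 and J980, J980 was at -0.12 and C10 at -0.18 in complex V. As a median of its genes, J980 was at -0.067 and C10 at -0.20. Follicle 861 was highest for complex I at 0.20, complex III at 0.17 and complex IV at 0.15, and H893 for complex V at 0.15. The orders in complexes III, IV and V are not firm. In complex III follicle 31 was at 0.15 ± 0.05, and in complex IV follicle 8 was at 0.13 ± 0.04. In complex V 861 was at 0.14, and H893 was at 0.0879 without the array of C12 and H893. For complex III, C26 was at -0.088 and J980 at -0.0949 without the array of C26 and 33, so these were not resolved. On the array with 26, complex IV was not seen to be lower in J980. There 26 over J980 averaged -0.022 without dye correction, within the residual SD of 0.0535 between arrays, so the direction is not resolved. Without J980, C10 was lowest for complexes I (-0.16 ± 0.03), IV (-0.20 ± 0.04) and V (-0.19 ± 0.05), and C26 for complex III (-0.15 ± 0.05). In complex III 27 was at -0.13 ± 0.07 and C32 at -0.11 ± 0.06 in that fit, so its lowest follicle is not resolved.

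Single genes were most often lowest in the same 2 follicles. J980 was the lowest follicle for 24 of the 67 subunits, against 15.5% of all genes, and the highest for 8, against 13.5%. Counted by sign, J980 did not stand apart. It was below 0 for 43 of 67 (64.2%, against 49.5% of all genes), C26 for 52, C10 and C32 for 46 each and 26 for 43. The SD over the 67 subunits was 0.41 in J980 and next 0.24 in 31. Without J980, C10 was lowest for 24 of 67, against 6.04% of all genes. Follicle 861 was highest for 15 of 67, against 6.85% of all genes, and without J980 again for 15, against 8.15%. Of the 25 subunits past the test, 22 were below 0 in J980, 13 were lowest there and 6 were lowest in C10. As shares these are 88%, 52% and 24%, against 69%, 39.6% and 4.7% of all genes past the test. J980 was highest for none of those 25, against 8.56% of all genes past the test, so all 8 subunits highest in J980 were among the 42 that did not pass. The test includes J980, and 12 of the 27 oxidative phosphorylation genes passed only with it. The place of J980 among genes past the test is therefore no separate support for low levels there.

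**Figure D3:**
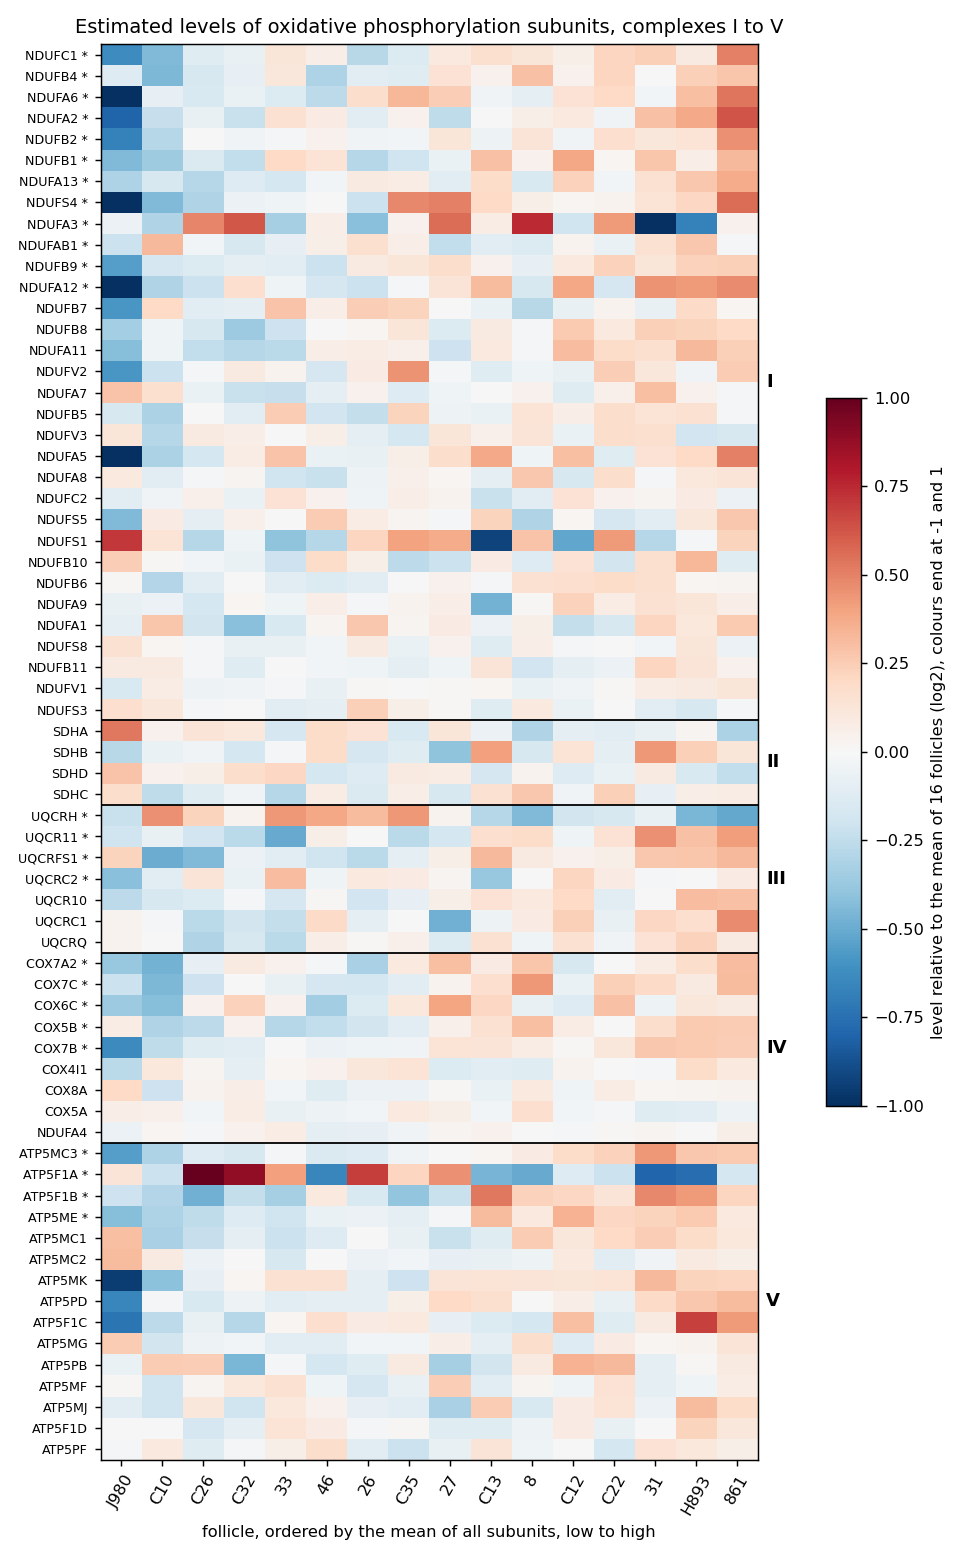
Level of each of the 67 subunit genes (rows, in blocks for complexes I to V, smallest p first; an asterisk marks genes past the F test) in the 16 follicles (columns, ordered by the mean of all subunits, low to high). Colour gives the log2 level, with colours ending at -1 and 1. The J980 column holds dark blue cells such as NDUFA6 at -1.07 and NDUFS4 at -1.13 beside red cells such as SDHA at 0.53, and NDUFA3 in follicle 31 is as dark at -1.08.

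In complex I the genes of smallest p were NDUFC1, NDUFB4, NDUFA6 and NDUFA2. NDUFC1, a small accessory subunit of the membrane arm, was at -0.63 ± 0.09 in J980 and from -0.45 in C10 to 0.51 in 861 among the other follicles, with a median of 0.08 over all 16 (adjusted p = 0.0018). On single arrays the difference of J980 minus its partner was -0.72 for 27, -0.81 for 8 and -0.34 for 26. NDUFB4, also of the membrane arm, had J980 inside the range of the others, at -0.13, and ran from -0.45 in C10 to 0.29 in 8, with a median of 0.02 (adjusted p = 0.0046). NDUFA6, a LYR-motif protein of the peripheral arm that binds the acyl carrier protein, was at -1.07 ± 0.15 in J980, and the other follicles lay between -0.26 in 46 and 0.54 in 861 (median of all 16 -0.03, adjusted p = 0.0061). NDUFA2, a peripheral arm subunit with a thioredoxin-like fold, was at -0.80 ± 0.11 in J980, and the others between -0.25 in 27 and 0.63 in 861 (median 0.02, adjusted p = 0.0066). For NDUFC1, NDUFA6 and NDUFA2 J980 was below every other follicle. NDUFC1, NDUFB4 and NDUFA2 are the 3 complex I genes that passed without J980 as well, at adjusted p of 0.023, 0.020 and 0.035, whereas NDUFA6 was at 0.085.

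The other 8 complex I genes past the test passed only with J980. NDUFB2 in the membrane arm was lowest in J980 at -0.67 ± 0.12 and next in C10 at -0.29 (adjusted p = 0.012), and without J980 its adjusted p was 0.11. NDUFB1, NDUFB9 and NDUFA13 of the same arm were lowest in J980 too, at -0.44, -0.55 and -0.31, and so were NDUFS4 and NDUFA12 of the peripheral arm, at -1.13 and -1.06. NDUFAB1, the mitochondrial acyl carrier protein, was lowest in 27 at -0.25, with J980 at -0.22, and highest in C10 at 0.33. NDUFA3, a membrane arm subunit, had the largest SD of complex I, 0.50, and another pattern: it was highest in 8 at 0.75 and C32 at 0.62, lowest in 31 at -1.08 and H893 at -0.67, and at -0.06 in J980. The calls of NDUFS4, NDUFA12, NDUFA13, NDUFA3, NDUFAB1 and NDUFB9 are the weakest of these, as each was lost in at least 11 of the fits that left out 1 array.

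Within complex I the low levels of J980 were uneven between structural parts. Of the 8 accessory subunits of the peripheral arm tested, J980 was lowest for 5, NDUFA5, NDUFS4, NDUFA6, NDUFA12 and NDUFA2, at -1.33 to -0.80, and the median over the 8 was -0.93. The other 3 were at -0.08 for NDUFA9, 0.12 for NDUFV3 and 0.29 for NDUFA7. Over the 18 accessory subunits of the membrane arm the median in J980 was -0.23, with J980 lowest for 8 and a range of -0.67 to 0.25. The 5 core subunits tested, which carry the flavin and iron-sulphur clusters or their scaffold, had a median of 0.15 in J980: NDUFV2 and NDUFV1 were lowest there, at -0.58 and -0.15, and NDUFS1 and NDUFS8 highest, at 0.71 ± 0.39 and 0.15. The NDUFS1 level rests on 1 array of J980, where J980 minus 26 was 0.31. None of those 5 passed the test, against 4 of 8 and 7 of 18 in the accessory groups. Of all genes 11.8% passed, and for 5 genes none past the test is not far from that share. J980 was lowest for 15.5% of all genes and highest for 13.5%. NDUFA5, the lowest of all subunits in J980, did not pass (adjusted p = 0.13), and its arrays were less alike: J980 minus its partner was -1.67 for 27, -0.42 for 8 and -1.70 for 26. These splits describe J980 alone and were not tested.

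**Figure D4:**
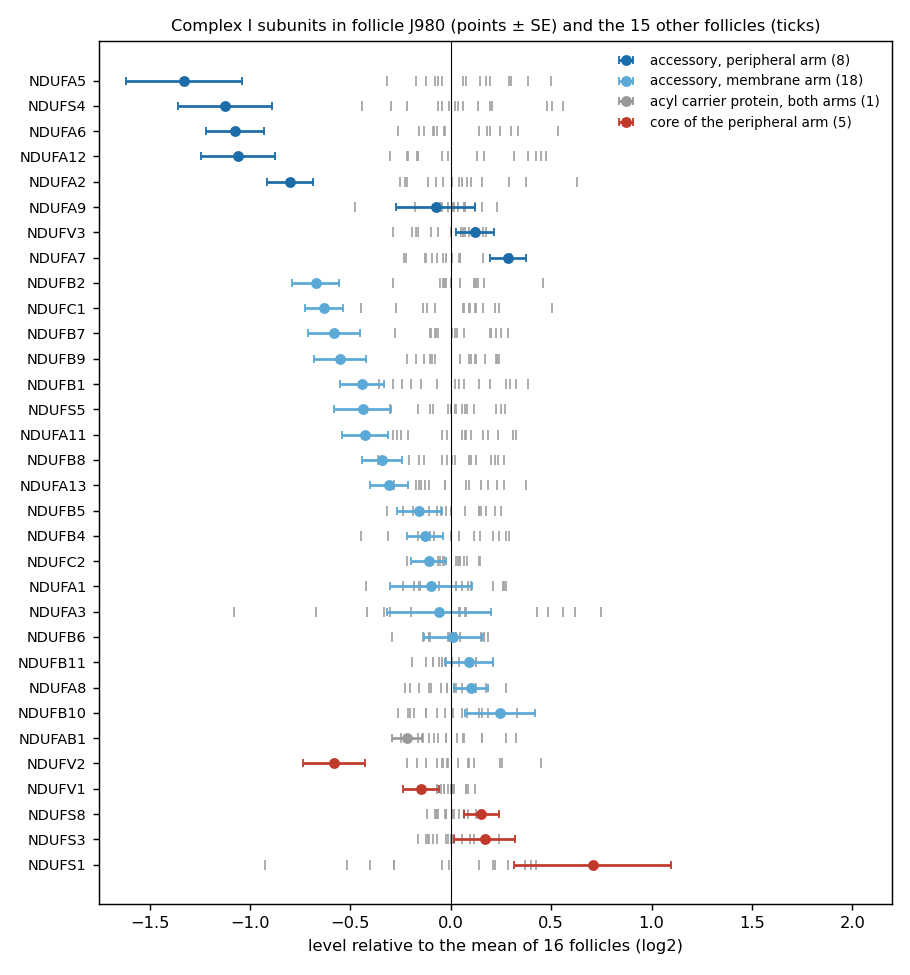
Levels (log2, horizontal axis) of the 32 tested complex I subunits in J980 (points with SE bars, coloured by structural part) and in each of the 15 other follicles (grey ticks). NDUFA5, NDUFS4, NDUFA6, NDUFA12 and NDUFA2 of the peripheral arm lie left of every tick of their row, at -1.33 to -0.80, and the 5 core subunits lie from -0.58 to 0.71.

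Complex II, succinate dehydrogenase, is an enzyme of both the tricarboxylic acid cycle and the respiratory chain. None of its 4 subunit genes passed the F test, and at an unadjusted p under 0.05 SDHA and SDHB did. SDHA, the flavoprotein, was highest in J980 at 0.53 ± 0.15, with the other follicles between -0.32 in 861 and 0.18 in 46 (adjusted p = 0.087). The arrays were unequal: J980 minus its partner was 0.73 for 27 and larger still for 8, but 0.0078 for 26. SDHB, the iron-sulphur protein, had the largest SD of the complex, 0.24, and went the other way in J980, at -0.28 ± 0.10, between -0.40 in 27 and 0.44 in 31 (adjusted p = 0.12). The membrane anchors SDHC and SDHD were at 0.18 and 0.29 in J980. The complex II mean of J980 therefore averages genes that differ among themselves, and with a SDHA feature measured on fewer arrays added it was 0.04. Adding the assembly factors SDHAF2 and SDHAF3, at -0.26 and -0.68 in J980, turned it to -0.04.

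In complex III, UQCRH and UQCRFS1 ran in opposite directions, with an r of -0.82 over the 16 follicles and -0.80 without J980. UQCRH, the hinge protein that contacts cytochrome c1, was highest in C10 at 0.46 ± 0.10 and lowest in 861 at -0.51 ± 0.11, with J980 at -0.22 and a median of -0.02 (adjusted p = 0.0013). Its Pearson r with the mean of the other subunits was -0.56 over the 16 follicles and -0.86 without J980. The pattern rests on 1 of 2 features. The first ranged from 0.92 in C10 to -1.01 in 861, and the second only from 0.16 in J980 to -0.12 in 31 (adjusted p = 0.91). Their levels over the 16 follicles had an r of 0.05, and which of them measures UQCRH was not tested. UQCRFS1, the Rieske iron-sulphur protein, ran from -0.49 ± 0.09 in C10 and -0.44 in C26 to 0.33 ± 0.10 in 861, with J980 at 0.22 (median 0.05, adjusted p = 0.0036). UQCR11, a small subunit, ran from -0.51 ± 0.07 in 33 to 0.46 ± 0.08 in 31, with J980 at -0.20 and a median of -0.02 (adjusted p = 0.0024). Its 2 features followed each other across follicle levels with an r of 0.93. Without J980 all 3 passed, UQCRH at an adjusted p of 0.0025, UQCRFS1 at 0.0060 and UQCR11 at 0.010. UQCRC2, a core protein, was at -0.42 ± 0.11 in J980, its lowest, and up to 0.31 in 33 (adjusted p = 0.048). It passed only with J980, and 22 of the 24 fits lacking a single array did not call it.

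Complex IV genes were low in C10 rather than in J980 alone. COX7A2, the widely expressed isoform of subunit VIIa, was at -0.47 ± 0.08 in C10 and -0.38 ± 0.09 in J980, with a median of 0.06 and 861 highest at 0.31 (adjusted p = 0.0034). COX7C was at -0.45 ± 0.09 in C10, at -0.22 in J980 and at 0.43 ± 0.11 in 8 (median -0.03, adjusted p = 0.0076). COX6C, with the largest SD of the complex at 0.24, was at -0.43 ± 0.09 in C10, -0.36 in J980 and 0.40 ± 0.11 in 27 (median 0.05, adjusted p = 0.010). COX5B, which binds zinc, was at -0.30 ± 0.09 in C10 and at 0.30 ± 0.10 in 8, with J980 at 0.07 (median 0.05, adjusted p = 0.014). These 4 small nuclear-encoded subunits had C10 as their lowest follicle, and all 4 passed without J980, at adjusted p of 0.019 to 0.038. COX7B differed from them in being lowest in J980, at -0.63 ± 0.12, with C10 next at -0.25 (adjusted p = 0.018), and it did not pass without J980 (adjusted p = 0.14). COX4I1, COX5A, COX8A and NDUFA4, which is now counted as a complex IV subunit, did not pass, and NDUFA4 had the smallest SD of all subunits of the complex, 0.05. With the genes past the test left out, the complex IV mean was -0.02 in J980, -0.0069 in C10 and 0.03 in 861.

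The isoform pair of subunit VIIa did not run together. COX7A2L, a paralog that joins complexes III and IV into supercomplexes, was highest in H893 at 0.58 ± 0.13, at 0.34 in J980 and lowest in C32 at -0.42 ± 0.13 (adjusted p = 0.032; without J980, 0.021). The r of COX7A2 with COX7A2L was -0.19 over 16 follicles and -0.11 without J980. COX7A2L failed the test in 15 of the 24 fits lacking a single array.

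In complex V the gene of smallest p with all 16 follicles was ATP5MC3, one of 3 genes for subunit c, which forms the rotating ring of ATP synthase. ATP5MC3 was at -0.55 ± 0.09 in J980, -0.31 in C10 and up to 0.43 ± 0.09 in 31, with a median of -0.01 (adjusted p = 0.0034; without J980, 0.029). ATP5MC1 and ATP5MC2, which encode the same mature protein behind other targeting peptides, were instead highest in J980, at 0.30 ± 0.11 and 0.32 ± 0.07. ATP5MC1 ran down to -0.32 in C10 and ATP5MC2 to -0.16 in 33, and neither passed (adjusted p = 0.052 and 0.063). J980 minus its partners 27, 8 and 26 was -0.53, -0.73 and -0.40 for ATP5MC3. For ATP5MC2 it was 0.45, 0.43 and 0.31, and for ATP5MC1 0.67, -0.14 and 0.32. Without J980, ATP5MC3 and ATP5MC1 followed each other over the 15 follicles with an r of 0.86, against 0.37 with J980, and ATP5MC3 and ATP5MC2 had an r of 0.06. The height of ATP5MC2 in J980 comes from 1 of its 2 features, at 0.76 there against -0.12 for the other, and whether the features tell the 3 genes apart was not tested.

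The catalytic head of ATP synthase is built of alpha and beta subunits. ATP5F1B, the beta subunit, ran from -0.48 ± 0.11 in C26 to 0.52 ± 0.12 in C13, with J980 at -0.21 and a median of -0.03 (adjusted p = 0.010; without J980, 0.017). ATP5F1A, the alpha subunit, had the largest SD of all subunits, 0.59, and was at 1.14 ± 0.17 in C26, 0.88 in C32, -0.76 in H893 and -0.80 ± 0.18 in 31, with J980 at 0.13 (adjusted p = 0.0059; without J980, 0.0019). Its call rests on 1 of 2 features, whose level followed the immunoglobulin gene IGHG1, a plasma cell marker, with an r of 0.98 over the 16 follicles. The other feature, with an r of 0.73 with IGHG1, ranged only from 0.42 in 26 to -0.33 in 8 (adjusted p = 0.36), and ATP5F1A did not pass from that feature alone. ATP5F1B had an r of -0.80 with IGHG1. IGHG1 itself was at 1.70 in C26 and -1.10 in 31, and its part in these levels was not tested.

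ATP5ME, subunit e, which helps ATP synthase form dimers, was lowest in J980 at -0.43 ± 0.11, with C10 next at -0.31, and highest in C12 at 0.35 (adjusted p = 0.018); it did not pass without J980 (adjusted p = 0.069). The central stalk subunit ATP5F1C, the peripheral stalk subunit ATP5PD and the small membrane subunit ATP5MK were also lowest in J980, at -0.73, -0.65 and -0.95, and did not pass, at adjusted p of 0.12, 0.11 and 0.086. ATP5IF1, the inhibitor that blocks ATP hydrolysis by ATP synthase, was at -1.04 ± 0.15 in J980, while the others lay between -0.24 in 46 and 0.51 in 861, with a median of 0.08 (adjusted p = 0.0070; without J980, 0.023). J980 minus its partner was -1.41 for 27, -0.78 for 8 and -1.13 for 26. Apart from ATP5IF1 and COX7A2L, the 9 genes that are no subunits did not pass: the assembly factors NDUFAF3, NDUFAF4, NDUFAF5, NDUFAF6, SDHAF2 and SDHAF3, and NDUFA4L2, a paralog of NDUFA4.

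**Figure D5:**
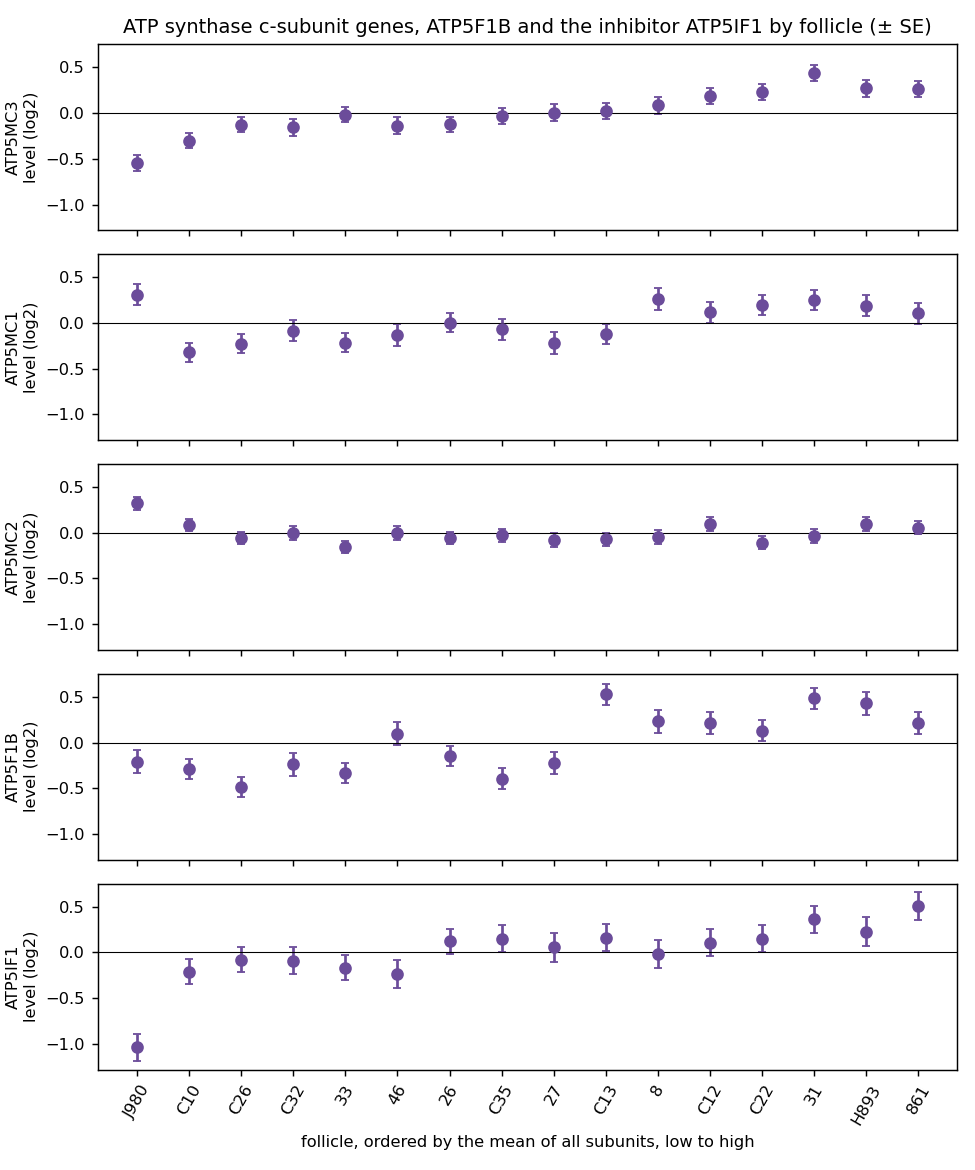
Levels (log2, with SE bars) of the 3 subunit c genes, ATP5F1B and ATP5IF1 in the 16 follicles, ordered by the mean of all subunits from low to high. In J980 ATP5MC3 and ATP5IF1 are at their lowest, -0.55 and -1.04, while ATP5MC1 and ATP5MC2 are at their highest, 0.30 and 0.32.

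The mean levels of complexes I, IV and V ran together across follicles, complex III followed I and V more closely than IV, and complex II did not follow them. Over the 16 follicles Pearson's r was 0.86 between I and V, 0.79 between I and IV, 0.74 between IV and V and between III and V, 0.73 between I and III and 0.43 between III and IV. Without J980 these were 0.86, 0.88, 0.81, 0.56, 0.63 and 0.45 in the order I and V, I and IV, IV and V, III and V, I and III, III and IV. Complex II had an r of -0.48 with I, -0.22 with IV and with V, and 0.00 with III; without J980 its r was between -0.13 and 0.30. Spearman's rho between I and II was -0.17. With J980 and 861, the 2 follicles farthest from the median of complex I, left out, r was 0.77 between I and V and 0.19 between I and II. Between III and IV, r without 861 and 31, farthest for complex III, was 0.26. The points share arrays through the loop and come from the same 16 samples, so the values are descriptions without a test.

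Gene by gene the likeness was weaker. The median r over all 2211 pairs of subunits was 0.16, and 0.19 without J980, against -0.0003 over all pairs of genes. Pairs within a complex had a median of 0.20 in complex I, -0.17 in II, 0.28 in III, 0.28 in IV and 0.16 in V, and pairs between complexes of 0.15. Among the 25 subunits past the test the median was 0.48, against 0.06 among all genes past the test. Against the mean of the other 66 subunits, 53 of 67 had a positive r and 31 an r above 0.5. ATP5MC3 and COX7B were the most alike to that mean, each with an r of 0.93 (0.89 and 0.91 without J980), followed by NDUFB2 and NDUFB9 at 0.89 and 0.88. Of the 25 past the test, 20 were above 0.5 and 3 were below 0: UQCRH at -0.56, ATP5F1A at -0.51 and NDUFA3 at -0.23.

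Outside the module, the genes whose levels were most like the subunit mean over the 15 follicles without J980 were CIAO2A at an r of 0.91, PSMB6 at 0.91, NEDD8 at 0.89, GTF2E2 at 0.89, PFDN1 at 0.88, PJA2 at 0.86, SNRPD2 at 0.86 and MRPL55 at 0.86, out of 8927 genes ranked, whose median r was 0.02. CIAO2A takes part in cytosolic iron-sulphur protein assembly, PSMB6 is a catalytic proteasome subunit, NEDD8 a ubiquitin-like protein, PFDN1 a prefoldin subunit, SNRPD2 a core spliceosomal protein and MRPL55 a mitochondrial ribosomal protein. The lowest r were those of C1S at -0.89, C1R at -0.87, ATP9B at -0.87 and MORN2 at -0.86, of which C1S and C1R encode the serine proteases of the first complement component. In the fit without J980, C1S was highest in C10 at 0.82 and lowest in 8 at -0.87. Of the genes named here, only PSMB6, PJA2, MRPL55, C1S and MORN2 passed the F test in that fit. ATP9B had an SD of levels of 0.05 in it (F test, adjusted p = 0.79). The r values are the extremes of 8927 genes ranked over 15 points, and no test of them was made.

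Other mitochondrial genes were compared through lists. The counts are to be read against the 11.8% of all genes past the test, and 39.6% of those genes were lowest in J980. Cytochrome c1, CYC1, the one gene tested among the respiratory chain genes that the naming rule leaves out, was highest in C13 at 0.44 and lowest in 33 at -0.50, with J980 at 0.08 (adjusted p = 0.020). Of the 29 assembly and coenzyme Q genes, 1 passed (BCS1L, which inserts the Rieske protein, at -0.59 in J980, adjusted p = 0.023), below the 11.8% of all genes; COA1 was next at an adjusted p of 0.0505. Mitochondrial protein import had 4 of 15 past the test: TOMM6 and DNAJC19 were lowest in J980 at -0.72 and -0.92, as were TOMM5 and TIMM23. The tricarboxylic acid cycle had 4 of 13, with IDH3A, a subunit of isocitrate dehydrogenase, at -2.01 ± 0.12 in J980 against a highest level of 0.67 in C13 (adjusted p = 2.5e-05), and SUCLG2 lowest in C10 at -0.52. Carriers, porins and cristae genes had 3 of 16, led by PHB1 at -0.81 in J980 and SLC25A5, the adenine nucleotide carrier, highest in 31 at 0.57. Mitochondrial DNA expression and protein quality had 2 of 15, near the 11.8% of all genes. These were YME1L1, highest in C10 at 0.78 and lowest in J980 at -0.36, and HSPD1, at -0.69 in J980. Of 13 regulators of respiratory genes only HIF1A passed, at -0.95 in J980, with MYC next at an adjusted p of 0.086. Without J980 the counts were 1 of 1, 0 of 29, 3 of 15, 3 of 13, 1 of 16, 1 of 15 and 1 of 13 in the order of these lists, against 7.5% of all genes.

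Glycolysis genes had 5 of 22 past the test, against 11.8% of all genes, and 3 without J980, against 7.5%. ENO1 and LDHA, which makes lactate, were at -0.75 and -1.43 in J980, against highest levels of 0.39 in 861 and 0.54 in 31 (adjusted p = 0.00040 and 0.0010), and TPI1, PKM and PGK1 were lowest in J980 as well. The list mean was -0.36 in J980, and its r with the subunit mean was 0.59 over 16 follicles and 0.26 without J980. For protein import that r was 0.88 and 0.83, and for assembly and coenzyme Q genes 0.84 and 0.79.

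Markers of cell types and of dividing cells also differed between follicles, and some lists ran with the subunit mean and others against it. Their counts stand beside the 11.8% of all genes past the test. Of 16 genes of dividing cells tested 8 passed, and their mean was -0.47 in J980, -0.16 in C10 and 0.37 in 31, the highest; its r with the subunit mean was 0.83, and 0.71 without J980. Granulosa markers had 5 of 9 past the test, with a mean of -0.58 in J980, -0.20 in C10 and 0.31 in 8, the highest (r of 0.68, and 0.55 without J980). INHBA and FST were at -2.69 and -2.05 in J980, but GATM of the same list was highest there, at 0.71. Smooth muscle and stroma markers had 4 of 10, with a mean of -0.42 in J980 and 0.23 in C10, and r was -0.13, and -0.73 without J980. Endothelium markers had 1 of 5, with a mean of 0.13 in J980 and a range of means of -0.42 to 0.52, and r was -0.57, and -0.59 without J980. Leukocyte markers had 5 of 12 past the test, with a mean of 0.20 in J980 and a range of means of -0.33 to 0.47. In J980 CXCR4 was at 2.06, but 5 of the 12 markers were below 0 there. For this list r was -0.55, and -0.51 without J980. Theca and luteal steroidogenic markers had 4 of 5, with a mean of -0.18 in J980 and a range of -0.31 to 0.32 (r of 0.27, and 0.16 without J980). Erythrocyte markers had 1 of 3, with a mean of -0.19 in J980 and a range of -0.19 to 0.32 (r of 0.58, and 0.26 without J980). Their part in the levels of the oxidative phosphorylation genes was not tested.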

How the data were processed

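Total RNA of 16 follicles was hybridised in pairs to 24 two-colour arrays; per the labels' protocols, GenePix Pro 4.0.1.12 analysed the images. The deposited values, 1 per feature and array, are treated as log2 ratios: their largest size, 6.32, exceeds 4.82, the log10 of a scanner's full range, while natural logs would be possible. The sources used here do not give the background correction or normalization. Array medians were between -0.014 and 0.0064 as deposited. The number of arrays limits the precision; the median SE of a gene's level was 0.12.

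Features were named from the platform annotation of 2007: 13605 had 1 symbol, 829 several and 2984 none, and those with several were not used. By gene ID 76 of 77 genes matched the RefSeq table of assembly ARS-UCD2.0. Arrays were centred on their medians. Features with values on at least 20 arrays were averaged per gene and fitted with follicle effects and a dye term, leaving 8 residual degrees of freedom (6 without J980). The fit of genes without J980 used the same averages and needed values on at least 17 of its arrays. The moderated F test of limma 3.58.1 (R 4.3.3) ran over all genes, adjusted by Benjamini-Hochberg at 0.05. Figures used matplotlib 3.10.9 in Python 3.11.15.

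Genes named were, per complex, the 4 of smallest p past the threshold (or 2 where none passed) and the largest SD; isoforms; the 4 of smallest p that passed only with J980; genes outside the module of highest and lowest r; and 2 of smallest p per list. Others were named after their values were seen. Members, lists and tests were chosen with earlier results of these data known, and 5 alternatives were chosen after seeing the data: leaving out an ATP5F1A feature, no filter before averaging, complexes by symbol start, leaving out genes past the test, and leaving out ATP5F1A and UQCRH. The others changed centring, scaling, the array minimum, the dye term, moderation, the use of several features, the median for the mean, and the arrays included. NDUFA4 was placed in complex IV. On simulated data for 9026 genes, the F test recovered 47% of 200 genes with a level SD of 0.25, with 6 false calls, and 92% at 0.5, with 14 false calls. Sequences and genome positions are not used here.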

Additional observations from a re-analysis of the deposited data

How the results depend on the processing

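Of the 27 genes past the test, 15 passed in every fit that left out 1 array, and 9 passed under every alternative tried; 4 were lost in 1 to 3 fits without 1 array and 8 in 11 to 22. Leaving out 1 array gave 23 to 41 features and 17 to 31 genes, the fewest without the array of 31 and C10 and the most without that of J980 and 8. Features fell to 25 without the array of C22 and C26 or of 33 and C13. Without J980 the range was 5 to 16 genes: 5 without the array of 31 and C10, 6 without those of 861 and C10 or of C22 and C26, and 8 without those of C32 and C26, 33 and C13, or 46 and 861. Without a dye term 23 features and 15 genes passed, and 6 genes without J980; without J980 25 features and 15 genes passed.

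Mean levels over leaving out 1 array ranged, in J980, from -0.37 to -0.25 (I), 0.12 to 0.27 (II) and -0.24 to -0.14 (IV); in complex I, from 0.16 to 0.27 in 861 and from -0.14 to -0.0114 in C10; and in complex II from -0.18 to -0.0479 in 27. H893 (V) fell to 0.0879 without the array of C12 and H893, and C26 (III) moved to -0.088 without that of C26 and 33. Leaving out the array of C10 and 26 gave the -0.37 of J980, the 0.27 of 861 and the -0.0114 of C10. With arrays scaled alike, J980 was at -0.19 (I) and -0.12 (IV). As a median of genes, J980 was at -0.19 (I), -0.20 (III) and -0.067 (V), 861 at 0.29 (III) and 31 at 0.0099 (II). With genes of 1 feature, 861 was at 0.29 (III), and J980 at -0.38 and H893 at 0.29 (V). With genes whose features all correlated above 0, J980 was at -0.27 and C10 at -0.22 (V). With 1 feature per gene, J980 was at -0.11 (IV). With up to 7 missing arrays, or features not filtered before averaging, J980 was at 0.0434 (II). With complexes taken from the start of the symbol, J980 reversed to -0.0369 (II), with 31 at 0.0092 and 27 at -0.0001. With genes past the test left out, J980 was at -0.12, 861 at 0.0945 and C10 at -0.0281 (I); 861 at 0.29 and C26 at -0.23 (III); and J980 at -0.0176, 861 at 0.034 and C10 at -0.0069 (IV). The median r of the 10 pairs of complexes was 0.58, 0.50 without J980 and 0.64 without ATP5F1A and UQCRH. The cause of these shifts was not tested. The 2 follicles of an array are paired within the fit itself. No further pairing was made, as the labels give no replicate numbers. Signal over background is unknown, so which features are dim was not tested.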

Other observations

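Of the 23 oxidative phosphorylation genes with several tested features, 10 had features whose follicle levels correlated below 0 for at least 1 pair: NDUFS3, NDUFV3, NDUFB7, NDUFB8, NDUFC2, COX8A, ATP5F1D, ATP5MC2, ATP5PB and ATP5MF. None of the 10 passed the gene-level test. For 8 genes that did not pass, at least 1 feature did: ATP5F1D, ATP5MC2, ATP5MF, NDUFA7, NDUFB7, NDUFB8, NDUFV3 and UQCR10. NDUFB7, a membrane arm subunit of complex I, shows how far this can go. Both of its features passed (adjusted p = 0.0072 and 0.0093), and both were lowest in J980, at -0.64 and -0.52. Yet the features had an r of -0.44 across follicle levels, the one highest in 33 at 0.88 and the other in 861 at 0.54. Their mean missed the threshold at an adjusted p of 0.0504.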
